A study of Mus musculus with 6 samples.

Results

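The 10 neutrophil genes followed across mouse fat were the cytosolic pair S100a8 and S100a9, the specific granule genes Ngp, Camp, Ltf and Lcn2, the azurophil granule genes Mpo and Elane, and Retnlg and Csf3r. They were chosen by name, and every probe set annotated to exactly 1 of these symbols was used. This gave 9 probe sets, 1 for each of 9 of the 10 genes, among 18193 genes with a probe set. Retnlg matched no such probe set and was not analysed here.

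The RNA came from epididymal (Epi), subcutaneous (SubQ) and brown (BAT) fat of male mice aged 2 months, either wild type (WT) or with a whole-body knockout of the histone demethylase gene Kdm4b (KO). The mice lived at room temperature on chow, and a 6-hour fast preceded sampling. The study asked which fat transcripts differ where Kdm4b loss leads to obesity. Each depot and genotype was measured on 1 Affymetrix array, 6 arrays in total. How many mice were pooled for a sample, and whether the depots share mice, is not given in the labels. No group therefore has a replicate, which limits the precision, and p-values over depots measure only the spread between these arrays.

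Neutrophils are short-lived leukocytes that mature in bone marrow and store antimicrobial proteins in granules made in sequence. Azurophil granules with Mpo (myeloperoxidase) and Elane (neutrophil elastase) form in promyelocytes, and specific granules with Ltf (lactoferrin), Camp (cathelicidin), Lcn2 (lipocalin 2) and Ngp (neutrophilic granule protein) form later. Transcripts of granule proteins are largely shut off in mature cells, while those of S100a8 and S100a9, whose proteins pair as calprotectin in the cytosol, stay abundant. Csf3r is the receptor for the growth factor that drives neutrophil production. Lcn2 is also made by adipocytes, epithelia and macrophages, and Ltf and Camp by some epithelia, so these genes are not specific to neutrophils in whole fat. In bulk tissue, fewer cells of a type and less RNA per cell cannot be told apart.

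S100a8 and S100a9 are neighbours on chromosome 3 with 0 protein-coding genes between them, and Ngp, Camp and Ltf share chromosome 9, with 8 protein-coding genes between Camp and Ngp and 20 between Ngp and Ltf. The 250 bases before the RefSeq start of the cytosolic pair and of 3 specific granule genes are shown because S100a8, Ngp, Ltf and Lcn2 differed at least 2-fold between genotypes in some depot and S100a9 is the partner of S100a8 (RefSeq, build GRCm38.p6, read 5′ to 3′ on the strand of the gene). Capitals mark matches to a C/EBP core (TTGCNNAA) or a PU.1 core (AGGAAGT), searched on both strands.
S100a8, chr3:90668821-90669070, plus strand: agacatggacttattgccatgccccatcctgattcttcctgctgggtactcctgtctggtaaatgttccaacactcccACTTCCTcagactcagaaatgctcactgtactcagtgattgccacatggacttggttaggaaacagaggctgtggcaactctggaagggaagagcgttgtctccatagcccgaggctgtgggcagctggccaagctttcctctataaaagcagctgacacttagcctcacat
S100a9, chr3:90695722-90695971, minus strand: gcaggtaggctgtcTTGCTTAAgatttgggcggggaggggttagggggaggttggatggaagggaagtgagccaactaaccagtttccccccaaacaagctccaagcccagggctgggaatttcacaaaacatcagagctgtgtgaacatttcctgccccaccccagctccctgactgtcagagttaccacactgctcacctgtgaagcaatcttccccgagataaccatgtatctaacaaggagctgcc
Ngp, chr9:110419558-110419807, plus strand: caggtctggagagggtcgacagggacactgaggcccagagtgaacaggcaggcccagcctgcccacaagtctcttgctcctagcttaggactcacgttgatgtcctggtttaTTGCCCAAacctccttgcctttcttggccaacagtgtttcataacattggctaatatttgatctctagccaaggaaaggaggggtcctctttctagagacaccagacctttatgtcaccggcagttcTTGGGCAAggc
Ltf, chr9:111019042-111019291, plus strand: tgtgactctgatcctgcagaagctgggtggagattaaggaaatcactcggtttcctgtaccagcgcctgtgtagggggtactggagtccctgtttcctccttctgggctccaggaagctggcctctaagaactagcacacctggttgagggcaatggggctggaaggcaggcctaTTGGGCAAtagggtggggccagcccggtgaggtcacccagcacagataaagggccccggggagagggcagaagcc
Lcn2, chr2:32387740-32387989, minus strand: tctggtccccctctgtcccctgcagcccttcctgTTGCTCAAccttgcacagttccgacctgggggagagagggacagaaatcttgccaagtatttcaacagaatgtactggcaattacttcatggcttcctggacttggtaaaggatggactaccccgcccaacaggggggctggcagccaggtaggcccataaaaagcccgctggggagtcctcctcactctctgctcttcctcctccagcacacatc
The C/EBP core was found in the promoter of S100a9, Ngp, Ltf, Lcn2 and Retnlg, 5 of the 10 genes, against 9.56% of 32851 promoters of the same length. Ngp held it at 2 places, the nearer one ending 4 bases before the start. The PU.1 core was found for S100a8, Mpo and Elane, 3 of the 10, against 7.69% of promoters. A match describes letters in this window and says nothing about binding in fat, which was not measured.

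Signals are linear MAS5 intensities, and a floor of 63.1, the 40th percentile of probe sets, separates measured values from those too dim to rank. A gene counts as measured in a depot when its KO or its WT array lies above the floor. Most of the 9 genes were dim. Only S100a8 and Csf3r lay above the floor on all 6 arrays. Of the 9, 4 were above it in Epi WT, 6 in Epi KO, 4 in SubQ WT, 8 in SubQ KO, 5 in BAT WT and 4 in BAT KO. In the same order, 69.9%, 69.5%, 70%, 74.7%, 71.9% and 70% of all 18193 genes were above it, most in SubQ KO. Kdm4b signal was lower with KO in all 3 depots, from 227 to 188 in Epi, 272 to 157 in SubQ and 135 to 95.2 in BAT, and the deleted part of the gene is not given in the labels. Ucp1, which marks brown adipocytes, was at 44367 and 40619 in brown fat against 6649 at most elsewhere, and Upk3b, a mesothelial gene, was at 4839 and 4651 in epididymal fat against 110 at most elsewhere.

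**Figure D1:**
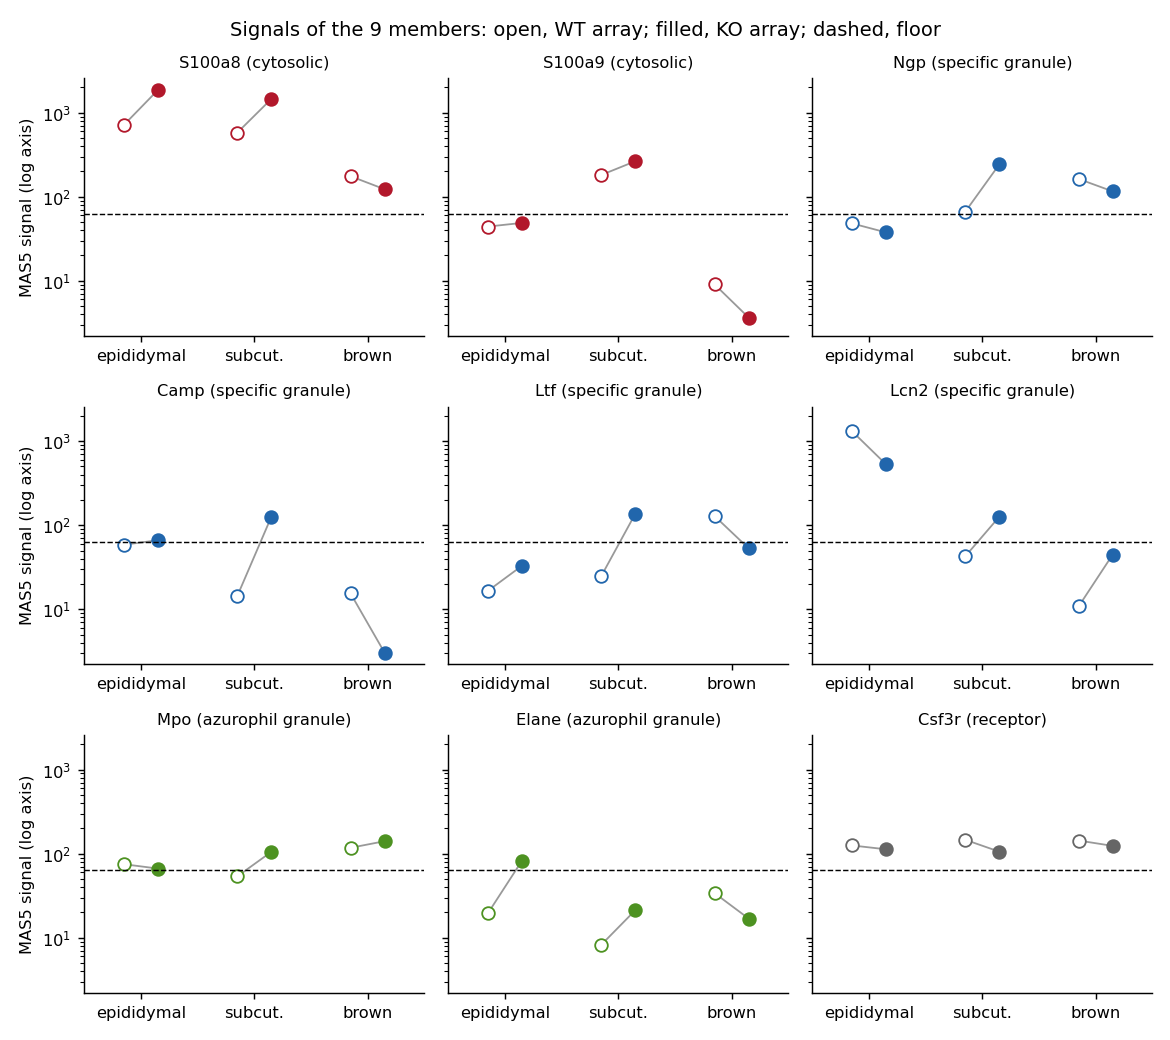
MAS5 signal on a log axis for each of the 9 genes (1 panel each) in the 3 depots, with the WT array as an open and the KO array as a filled circle, joined by a line, and the floor of 63.1 dashed. Red marks cytosolic, blue specific granule, green azurophil granule genes and grey the receptor gene. S100a8 lies above the floor throughout, Lcn2 is bright only in epididymal fat, and Camp and Ltf cross the floor between the SubQ arrays.

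Among the cytosolic genes, S100a8 was higher in the KO array of both white depots. Its signal was 712 in Epi WT, 1854 in Epi KO, 576 in SubQ WT, 1451 in SubQ KO, 175 in BAT WT and 123 in BAT KO. Both white KO arrays exceeded both white WT arrays, a separation seen in one direction or the other for 28.3% of 13233 genes, and both brown arrays lay below all white ones. The KO array was 2.60-fold higher in epididymal fat (log2 difference 1.38) and 2.52-fold higher in subcutaneous fat (1.33), and differed by -0.51 on the log2 scale in brown fat. The only error available within a depot is the SD between probe sets of one gene, on the log2 scale 0.23 in epididymal and 0.25 in subcutaneous fat for bright genes and 0.41 to 0.44 in the 3 depots for genes under 4 times the floor. It leaves out the spread between mice. Each step in the order of the 6 S100a8 signals was larger than this SD for its pair of arrays. The smallest, 0.31 between Epi WT and SubQ WT, stood against an SD of 0.27. The S100a8 probe set is of a type that can match more than 1 transcript.

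S100a9, the partner of S100a8, was measured in subcutaneous fat alone. It was at 181 in SubQ WT and 264 in SubQ KO, and at 44.2, 48.8, 9.04 and 3.65 in Epi WT, Epi KO, BAT WT and BAT KO. Both subcutaneous arrays were above the floor and the other 4 were below it. The subcutaneous KO array was 1.46-fold higher, a log2 difference of 0.54 against an SD between probe sets of 0.43. In epididymal fat, where S100a8 differed by 1.38, S100a9 had no measurable level on either array.

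The specific granule genes were highest in the SubQ KO array, apart from Lcn2. Ngp was at 48.2, 37.7, 66.5, 243, 163 and 116 in Epi WT, Epi KO, SubQ WT, SubQ KO, BAT WT and BAT KO. It was 3.65-fold higher in SubQ KO than in SubQ WT (log2 difference 1.87, SD between probe sets 0.43) and under the floor in both epididymal arrays. Its SubQ KO and BAT WT signals differed by 0.58, within an SD of 0.61. Ltf was at 16.5, 32.9, 24.8, 137, 128 and 53.0 in the same order, so that only SubQ KO and BAT WT were above the floor. These Ltf signals differed by 0.09, also within an SD of 0.61. Its KO array was at least 2.16-fold higher in subcutaneous and at least 2.03-fold lower in brown fat. Camp, at 58.5, 66.2, 14.3, 125, 15.4 and 3.04, was at least 1.97-fold higher in SubQ KO, just short of the 2-fold limit, and barely above the floor in Epi KO.

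Lcn2, an iron-siderophore binding protein gene, had a pattern of its own. Its signal was 1315 in Epi WT, 531 in Epi KO, 42.7 in SubQ WT, 126 in SubQ KO, 10.9 in BAT WT and 44.8 in BAT KO. Both epididymal arrays were far above the others, and both brown arrays were under the floor. The KO array was 2.48-fold lower in epididymal fat (log2 difference -1.31, SD between probe sets 0.23) and at least 2.00-fold higher in subcutaneous fat (1.002), which is just past the limit. The direction thus differed between the white depots, a difference that was not tested.

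Mpo and Elane, the azurophil granule genes, were near or under the floor. Mpo was at 75.0, 66.5, 53.6, 105, 118 and 141 in Epi WT, Epi KO, SubQ WT, SubQ KO, BAT WT and BAT KO, highest in the brown arrays and at least 1.66-fold higher in SubQ KO than in SubQ WT. BAT KO, BAT WT and SubQ KO did not differ from one to the next beyond the SD between probe sets, and SubQ KO exceeded Epi WT by 0.48 on the log2 scale against an SD of 0.45. Elane was above the floor on the Epi KO array alone, at 82.1, and between 8.23 and 33.9 on the other 5. Csf3r, the receptor gene, was nearly level. It was at 125, 113, 146, 106, 143 and 124 in the same order of arrays, lower with KO in all 3 depots, with log2 differences of -0.15, -0.47 and -0.21, and no step between neighbours in the order of its levels exceeded the SD.

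**Figure D2:**
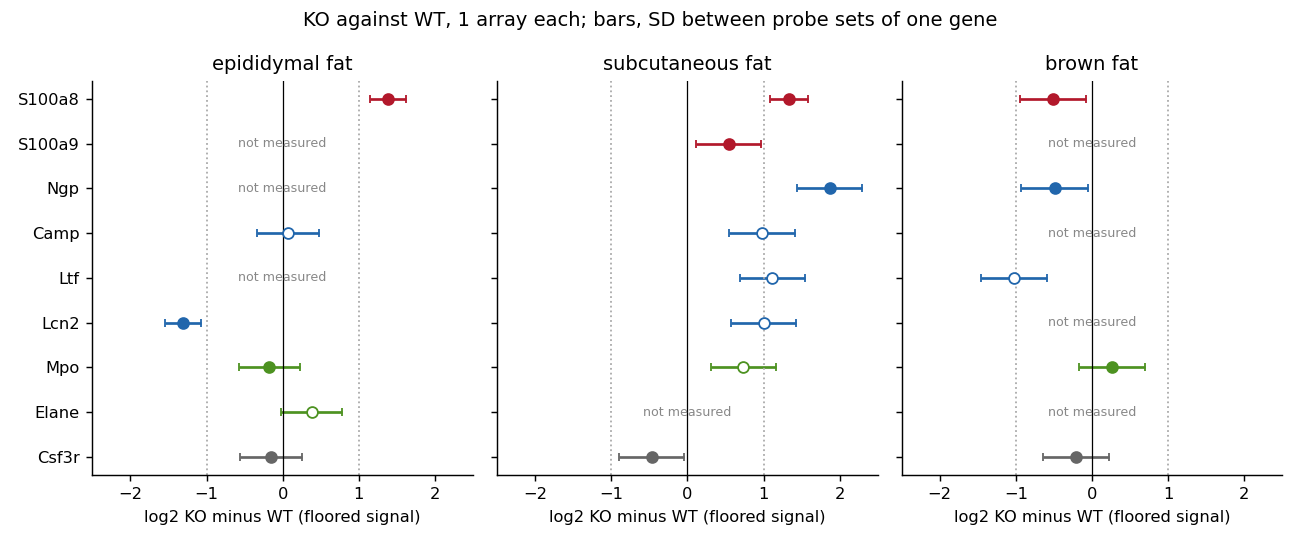
Log2 KO minus WT of floored signals for the 9 genes in each depot, 1 array per genotype. Bars are the SD between probe sets of one gene, open circles have 1 array at or under the floor, dotted lines mark 2-fold, and colours are as for the signals. S100a8, Ngp, Ltf and Lcn2 lie past 2-fold on the right in subcutaneous fat, with Camp on the line, and Lcn2 lies past it on the left in epididymal fat.

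Counted against all genes, subcutaneous fat held most of the differences. There, 4 of 8 measured genes (S100a8, Ngp, Ltf and Lcn2) were at least 2-fold higher in the KO array, against 2.2% of 13857 genes measured, and 0 were at least 2-fold lower, against 0.722%. Ltf and Lcn2 counted as measured there through the KO array alone, so that their direction was set by that rule, as was that of Ltf in brown fat. In epididymal fat 1 of 6 (S100a8) was higher, against 0.87% of 13225, and 1 (Lcn2) was lower, against 1.41%. In brown fat 0 of 5 were higher, against 1.1% of 13778, and 1 (Ltf) was lower, against 2.43%. After quantile normalization or median centring of the arrays, S100a8 and Ngp stayed past 2-fold in subcutaneous fat while Ltf (0.84 and 0.81 on the log2 scale) and Lcn2 (0.72 and 0.70) lay short of it. Ltf in brown fat was at -0.98 after median centring, also just short. Median centring also evened out the counts over all genes, to 1.11% higher and 1.1% lower in subcutaneous fat, 1.42% and 1.06% in epididymal fat and 1.75% and 1.67% in brown fat.

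The SubQ KO array also raised many other dim genes. Of 5460 genes at or under the floor in SubQ WT, 20.6% were above it in SubQ KO and 1.96% reached at least 2 times the floor. In the opposite direction, of 4600 genes at or under the floor in SubQ KO, 5.74% were above it in SubQ WT and 0.348% reached 2 times the floor. Among the neutrophil genes, 5 (Camp, Ltf, Lcn2, Mpo and Elane) were under the floor in SubQ WT. Of these, all but Elane were above it in SubQ KO, and Ltf and Lcn2 reached 2 times the floor, with Lcn2 at 126.4 and Camp at 124.6 just inside and just outside the limit of 126.3. SubQ KO was the highest of the 6 arrays for S100a9, Ngp, Camp and Ltf, 4 of 9, against 15.7% of 15074 genes above the floor somewhere. For Ngp and Ltf the step down to BAT WT was within the SD between probe sets. The part of this general shift of dim signals in the granule gene differences was not tested.

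**Figure D3:**
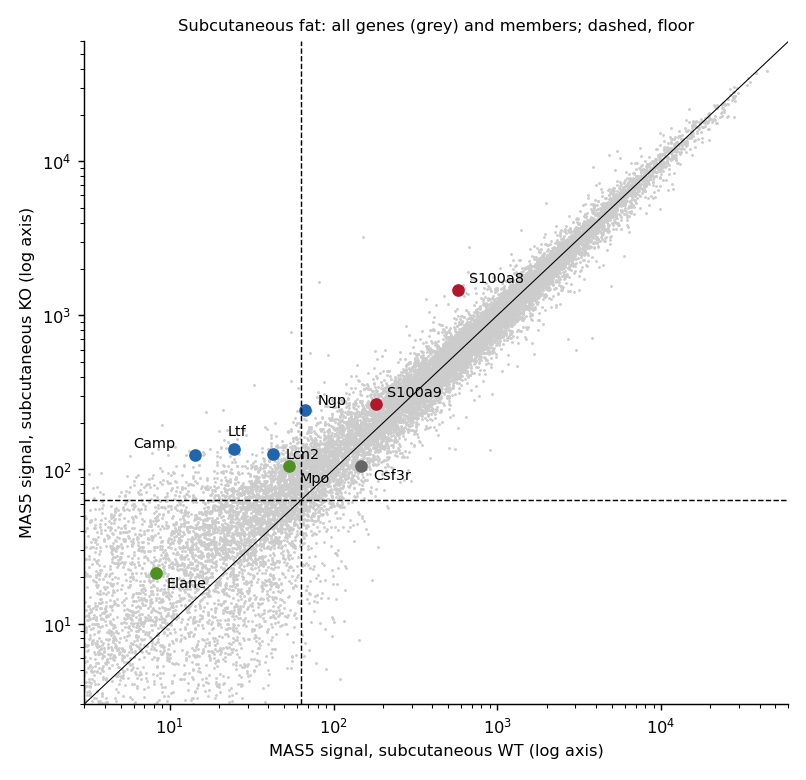
MAS5 signal of every gene (grey) in the subcutaneous WT array (x, log axis) and KO array (y, log axis), with the 9 neutrophil genes named and coloured by role, the line of equal signal, and the floor dashed; signals under 3 lie outside the axes. S100a8 (576 to 1451) stands above the cloud of bright genes, while Camp, Ltf, Lcn2 and Mpo lie left of the floor in WT, where the cloud is wide.

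Cytosolic and granule genes could be set side by side only over the genes measured in each depot. In epididymal fat the cytosolic side was S100a8 alone, at 1.38 on the log2 scale, against a median of -0.05 over the 4 granule genes measured (Camp, Lcn2, Mpo and Elane). In subcutaneous fat S100a8 and S100a9 had a median of 0.94 and the 5 granule genes measured one of 1.002. In brown fat S100a8 was at -0.51 and the median of Ngp, Ltf and Mpo was -0.49. The medians over all genes were -0.02, 0.04 and -0.03 in the same order of depots. Of the 5 granule genes in subcutaneous fat, Camp, Ltf, Lcn2 and Mpo were above the floor in the KO array alone, and could only be higher there. The same holds for Camp and Elane in epididymal fat, and Ltf in brown fat, above the floor in WT alone, could only be lower. The medians therefore do not show whether the classes moved alike or apart, and no test was made.

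Across depots, S100a8 and Lcn2 were lower in brown than in white fat. In a limma fit with depot and genotype as terms, 5 of the 9 genes passed the filter of 3 arrays above the floor, and 3 of those 5 were called between brown and white fat, against 52.6% of 13233 genes tested (21.6% higher and 31% lower). S100a8 fell 6.99-fold (log2 difference -2.80 ± 0.43 SE, limma adjusted p = 0.00488, 2 against 4 arrays), lower in both brown arrays than in all white ones. The size rested on which brown array was used: without BAT WT the difference was -3.74 and without BAT KO -1.87, and brown fat was 3.65-fold lower among WT and 13.4-fold lower among KO arrays. Lcn2 fell 4.33-fold on the floored scale (-2.11 ± 0.46, limma adjusted p = 0.015), with overlap, since SubQ WT was under the floor too. Mpo rose by 0.76 ± 0.21 (limma adjusted p = 0.0313), higher in both brown arrays than in all white ones, at signals that nowhere exceeded 141. The brown and white arrays did not overlap for 60% of the genes tested. The median of all genes in this contrast was -0.11, and -0.01 after quantile normalization. Ngp (0.62 ± 0.49) and Csf3r (0.13 ± 0.13) were not called. Without either brown array, Lcn2 and Mpo lost the call (limma adjusted p of 0.0758 to 0.14) and S100a8 kept it (0.00574 and 0.00649). With no filter on dim genes all 3 lost it, S100a8 at a limma adjusted p of 0.0813. Mpo also lost it with the floor at the 20th percentile (limma adjusted p = 0.0904) and with no floor (0.072). Without Epi KO, Mpo lost it (limma adjusted p = 0.0724), and without SubQ KO, Ngp gained it (1.14, limma adjusted p = 0.00501).

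Between the white depots Lcn2 was the 1 gene of 5 called, against 5.04% of genes tested (3.88% higher and 1.16% lower). Subcutaneous fat was 9.35-fold lower than epididymal fat on the floored scale, with SubQ WT under the floor (log2 difference -3.23 ± 0.53 SE, limma adjusted p = 0.0395), lower in both subcutaneous arrays. The arrays of the white depots did not overlap for 52.4% of genes tested. The difference was -2.32 without Epi WT, -4.13 without Epi KO, -2.40 without SubQ WT and -4.05 without SubQ KO. The call was lost without any 1 of the Epi and BAT arrays (limma adjusted p = 0.0523 to 0.131). Without SubQ WT, Ngp was called higher in subcutaneous fat (limma adjusted p = 0.0169). S100a8 differed by -0.33 ± 0.50, and its direction turned without Epi KO (0.16) or SubQ WT (0.12). S100a9, which did not pass the filter, was at least 2.87-fold higher in SubQ than in Epi among WT arrays and at least 4.19-fold among KO arrays. With the floor at the 20th percentile it entered the fit, where it differed by 2.24 between the white depots (limma adjusted p = 0.0562) and fell by 2.37 from white to brown fat (limma adjusted p = 0.00481). With no filter, the other alternative that fitted it, it differed by 1.79 between the white depots (limma adjusted p = 0.125) and by -0.90 between brown and white fat (limma adjusted p = 0.0697).

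Over the 3 depots, 0 of 5 genes passed for KO against WT in limma, as did 0 of 13233 genes, or 0%, with 8.34% of all genes and 0 of the 5 at an unadjusted p under 0.05. The depots stand in for replicates here, so the p measures how alike the 3 differences are. S100a8 was higher by 0.73 ± 0.41 (limma adjusted p = 0.656, higher in 2 of 3 depots). Csf3r was lower by 0.28 ± 0.13, a log2 difference of -0.28 (limma adjusted p = 0.633, lower in 3 of 3 depots), and its KO and WT arrays did not overlap, as for 3.51% of genes tested. Without brown fat, S100a8 was higher by 1.36 ± 0.14 (limma adjusted p = 0.471, higher in 2 of 2 depots). It was higher by 0.41 ± 0.48 without epididymal fat (limma adjusted p = 0.925) and by 0.43 ± 0.42 without subcutaneous fat (limma adjusted p = 0.889), each time in 1 of 2 depots. A test of whether KO against WT differs between white and brown fat, chosen after seeing the data, gave a difference of 1.87 ± 0.24 for S100a8 (limma adjusted p = 0.521) and called 0 of 13233 genes, with 8.17% at an unadjusted p under 0.05. In simulated data of this size that test recovered 0% of genes made to differ by 2 on the log2 scale.

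**Figure D4:**
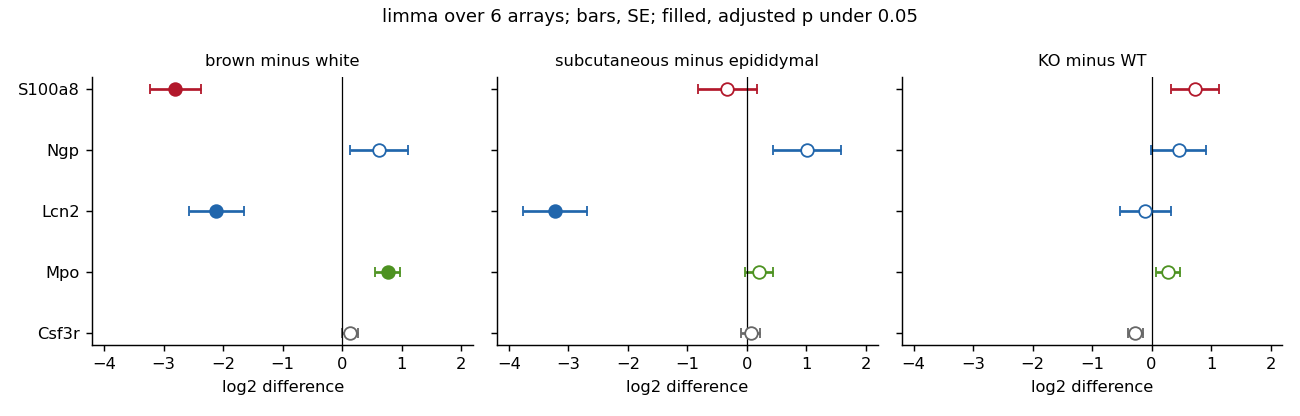
Log2 differences from the limma fit over 6 arrays for the 5 genes that passed the filter, with SE bars, in 3 panels (brown minus white, subcutaneous minus epididymal, KO minus WT). Filled circles have an adjusted p under 0.05: S100a8, Lcn2 and Mpo between brown and white fat, Lcn2 between the white depots and none between genotypes.

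On the floored scale, other genes of mature neutrophils gave no 2-fold rise with KO in any depot. Of 30 listed, 21 had a probe set. In epididymal fat 0 of 13 measured were at least 2-fold higher in KO, against 0.87% of all genes measured. There 1, the histidine decarboxylase gene Hdc, was lower (247 to 78.2), against 1.41%. In subcutaneous fat 0 of 16 were higher, against 2.2%, and 1, the lectin receptor gene Clec4d, was lower (262 to 128), against 0.722%. In brown fat 0 of 11 were higher, against 1.1%, and 1, the gelatinase gene Mmp9, was lower (345 to 125), against 2.43%. At these shares a list this short can hold 0 higher genes without differing from all genes. Cxcr2, the chemokine receptor that calls neutrophils into tissue, was above the floor in SubQ WT alone (74.5), and Cd177, a neutrophil surface gene, on none of the arrays. In the counts between genotypes, a change to or from a signal under the floor is a lower bound. Trem1, for example, was at 46.7 and 101 in Epi WT and KO and at 21.6 and 106 in BAT WT and KO. Cxcr2 was at 74.5 and 22.6 in SubQ WT and KO. Counts between brown and white fat are to be read beside the 31% of all genes tested that fell and the 21.6% that rose. Of the mature neutrophil genes, 9 of 13 tested fell in limma and 1, G0s2, which adipocytes also express, rose. The largest fall was that of Wfdc21, 13.0-fold (limma adjusted p = 0.000778). Wfdc21 was at 4340 to 6898 on the white arrays, while Cxcr2 and Cd177 did not exceed 74.5 on any array. Whether neutrophils were the source of its signal was not tested. Il1r2, a decoy receptor gene for interleukin 1, rose 13.0-fold on the floored scale from epididymal to subcutaneous fat (limma adjusted p = 0.0116). Next to it, Mmp9 rose 2.69-fold (limma adjusted p = 0.0365) and Trem1 2.07-fold (limma adjusted p = 0.0215). For Il1r2 and Trem1, Epi WT was under the floor.

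The list of granulocyte precursor genes held 14 with a probe set, which include Ngp, Ltf, Camp, Mpo and Elane. In subcutaneous fat 3 of 12 measured were at least 2-fold higher in KO, against 2.2% of all genes measured, and 1 was lower, against 0.722%. The 3 were Ngp and Ltf, both already counted above, and the ficolin gene Fcnb (84.0 to 179). Ltf counted as measured there through the KO array alone. Prtn3, the proteinase 3 gene stored in azurophil granules with Mpo and Elane, went the other way. It was at 790, 357, 1167, 487, 21.5 and 33.9 in Epi WT, Epi KO, SubQ WT, SubQ KO, BAT WT and BAT KO, which is 2.21-fold and 2.40-fold lower in the KO array of the white depots. All 4 white arrays were above both brown ones, which were under the floor. On the floored scale, Prtn3 fell 10.02-fold from white to brown fat (limma adjusted p = 0.000907). Ctsg, the cathepsin G gene, was under the floor on every array.

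Of the recruitment genes, Cxcl1, a chemokine for neutrophils, was at 335 and 472 in Epi WT and KO. In SubQ WT and KO it was at 194 and 367. Ppbp, on the same list, fell in both depots, from 209 to 109 and from 187 to 84.7. At least 2-fold higher with KO were 0 of 9 measured in epididymal, 0 of 8 in subcutaneous and 0 of 9 in brown fat. Over all genes measured these shares were 0.87%, 2.2% and 1.1%. At least 2-fold lower were 0 of 9, 1 of 8 (Ppbp) and 2 of 9 (Csf3 and Lif), against 1.41%, 0.722% and 2.43%. In brown fat Csf3 and Lif were above the floor in the WT array alone, and could only be lower. Csf3, the ligand of Csf3r, was above the floor in BAT WT alone, and at least 3.85-fold lower in BAT KO (243 to 21.6). The adhesion molecule gene Icam1 fell 4.63-fold and the selectin ligand gene Selplg 4.71-fold from white to brown fat (limma adjusted p = 0.000448 and 0.000633). In all, 4 of 8 recruitment genes tested fell and 1 rose, against 31% and 21.6% of all genes. Genes of the leukocyte oxidase and integrins fell in 9 of 9, among them the integrin gene Itgb2 by 13.97-fold (limma adjusted p = 0.00054). Of the genes for receptors of calprotectin and their partners, 4 of 5 fell, with Tlr4 2.85-fold lower (limma adjusted p = 0.00244). In each white depot, 0 oxidase and integrin genes and 0 calprotectin receptor genes were past 2-fold between genotypes. The median log2 KO minus WT of the oxidase and integrin list was 0.22 in epididymal and -0.45 in subcutaneous fat. That of the calprotectin receptor list was 0.03 and -0.26.

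Markers of other cells moved with some of these differences. Their counts are to be read beside the shares of all genes. From white to brown fat 31% of genes tested fell, and from epididymal to subcutaneous fat 3.88% rose and 1.16% fell. At least 2-fold higher and lower with KO were 0.87% and 1.41% of genes measured in epididymal fat. The same shares were 2.2% and 0.722% in subcutaneous fat and 1.1% and 2.43% in brown fat. From white to brown fat, 5 of 5 mast cell, 6 of 7 B cell and 6 of 7 T cell genes tested fell (limma). Macrophage genes, which neutrophils share in part, fell in 12 of 12 tested, with a summed signal of 50512 to 67539 on the white and 9174 to 11642 on the brown arrays. Between genotypes 0 of 12 were past 2-fold in epididymal fat, and 1 of 12, Fcgr1, was lower in subcutaneous fat. The median log2 KO minus WT of the macrophage list was 0.25 in epididymal fat (summed signal 50804 to 59143). It was -0.51 in subcutaneous fat (67539 to 50512) and -0.27 in brown fat (11642 to 9174). The medians over all genes were -0.02, 0.04 and -0.03. Epithelial genes were at least 2-fold higher in SubQ KO for 4 of 11 measured, beside Ltf and Lcn2. These were the keratin genes Krt8 (56.6 to 160) and Krt18 (66.0 to 211), Wfdc18 (109 to 238) and the milk casein gene Csn3 (2.61 to 170), the last named after its values were seen. Krt8 and Csn3 were under the floor in SubQ WT, and could only be higher. Of the epithelial list, 6 genes were above the floor in SubQ WT and 11 in SubQ KO. Those above it in SubQ KO alone had their direction set by that rule. The summed signal of the epithelial list was 1149 in SubQ WT and 2232 in SubQ KO, and 3009 in Epi WT and 2243 in Epi KO, where 1 of 7 measured was at least 2-fold lower. Krt8 was at 1135 and 775 in Epi WT and KO. On the floored scale, with SubQ WT under the floor, Krt8 fell 9.34-fold from epididymal to subcutaneous fat (limma adjusted p = 0.0251). It was the 1 epithelial gene of 8 tested that fell in this contrast, where the median of the list was 0.14. Mesothelial genes fell in 7 of 7 tested in the same contrast, beside Lcn2, with a summed signal of 11615 and 10503 in Epi WT and KO and 598 and 470 in SubQ WT and KO. Seminal vesicle and other accessory gland genes were lower in SubQ KO for 7 of 8 measured, with a summed signal of 9895 in SubQ WT and 2237 in SubQ KO. Skeletal muscle genes were at least 2-fold lower in BAT KO for 12 of 12 measured, beside Ltf and Csf3, with a summed signal of 21251 in BAT WT and 1011 in BAT KO, and for 8 of 12 in Epi KO, beside Lcn2 (6145 to 2702). Of these 12 genes, 6 were above the floor in BAT KO and 9 in Epi KO, and the rest could only be lower there. In SubQ KO 3 of 12 were at least 2-fold higher, beside the granule genes: Mb (81.1 to 1637), Myh1 (151 to 3203) and Myh2 (54.9 to 782), named after their values were seen. Myh2 was under the floor in SubQ WT, and could only be higher. B cell genes rose in 6 of 7, T cell genes in 5 of 7 and mast cell genes in 4 of 5 from epididymal to subcutaneous fat (limma), where S100a9 was measured. Haemoglobin and other red cell genes, a sign of blood in the sample, were past 2-fold in none of the depots, with a summed signal of 686 to 1078 on the 6 arrays. The part of these cells in the neutrophil gene differences was not tested.

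The genes whose log2 signals were most like those of S100a8 over the 6 arrays were Gpatch2l, Rasgrp2, Cyth3, Hyi and Dbh, with Pearson r from 0.992 to 0.996 among 6694 genes that varied at least 2-fold. Those most like Ngp were Pcdhb15, Gprc5d, Stra8, Serpini1 and Scnn1b (r from 0.981 to 0.999). All 5 were dim, with signals of 178 at most, and highest in SubQ KO. Those most like Lcn2 were Dtna, Susd4, Dynlrb2, Hs3st6 and Disp2 (r from 0.988 to 0.997), each brightest in Epi WT. Those most like Csf3r were Dleu2, Plxnb3, Nipal2, A330023F24Rik and Bcdin3d (r from 0.878 to 0.964). With 6 arrays that share depots and genotypes, and many genes searched, these values describe likeness of pattern alone.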

How the data were processed

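Total RNA was measured on 6 Affymetrix arrays. MAS5 and Affymetrix Expression Console are named in the submitters' processing notes, and the deposited values are linear intensity values with a 2%-trimmed mean of 500 on each array. Software versions and detection calls were not used here. MAS5 treats arrays singly, and its scaling hides changes in total RNA. Dim probe sets are noisy.

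The platform annotation gave 1 symbol for 34945 of 45037 non-control probe sets, several for 932 and none for 9160. Looked up by gene identifier in RefSeq (GRCm38.p6), 34741 were found and 0 symbols changed. Signals under the 40th percentile (63.1) were set to that floor before log2 transformation, keeping each gene's brightest probe set. Within depots, differences of 2-fold or more were counted without a test if 1 array exceeded the floor. For tests over arrays, genes needed 3 arrays above the floor, and limma 3.58.1 in R 4.3.3 was used with depot and genotype as terms and a Benjamini-Hochberg threshold of 0.05. When tested on simulated data of 13233 genes, shifts of 1 (log2) were recovered in 0% of cases in each contrast, and shifts of 2 in 84% for genotype, 82% for brown against white and 69.5% between white depots. Alternatives covered scaling, floor, filter, probe set choice, fold limit, intensity trend and arrays or depots left out. Other software was Python 3.11.15 with pandas 2.3.3, numpy 2.4.6, matplotlib 3.10.9 and scipy 1.17.1.

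The members and gene lists were chosen with earlier results of these data known. Genes were named by rule: all members, up to 4 per list with the largest range over the arrays and a brightest array of at least 2 times the floor, the 5 most like each of S100a8, Ngp, Lcn2 and Csf3r, and Kdm4b, Ucp1 and Upk3b. Hdc, Fcnb, Csf3, Cxcl1, Ppbp, Lif, Cxcr2, Cd177, Ctsg, Csn3, Mb, Myh1, Myh2, Trem1 and G0s2 were named after their values were seen.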

Additional observations from a re-analysis of the deposited data

Results flagged for a closer look

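Lcn2 and Ltf each differed by at least 2-fold between KO and WT in opposite directions in a pair of depots, with 1 array per group, and the difference between the depots was not tested. Lcn2 differed by -1.31 on the log2 scale in epididymal fat (signal 1315 to 531) and by 1.002 in subcutaneous fat (42.7 to 126). Ltf differed by 1.11 in subcutaneous fat (24.8 to 137) and by -1.02 in brown fat (128 to 53.0). Of these 4 differences, the epididymal one of Lcn2 had both arrays above the floor, and the other 3 had 1 array at or under it.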

How the results depend on the processing

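With 1 array per group, no value within a depot has a replicate, and most signals lie under 4 times the floor, where probe sets of one gene differ most. No paired analysis was possible because each group holds 1 array with no replicate number in the labels; depot served as the block between genotypes, and the fit with no replicate block called 0 of the neutrophil genes, as did every other alternative for KO against WT over depots. Brown against white fat gave 3 called genes, 1 with the floor at the 60th percentile (S100a8, the 1 gene then tested), 0 of 9 tested with no filter, and 1 to 4 when leaving out 1 array. Subcutaneous against epididymal fat gave 1, and 0 with the floor at the 20th or 60th percentile, with no filter or with no floor, and 0 to 2 when leaving out 1 array. At the 60th percentile Lcn2 was not tested. At the 20th percentile the 3 genes called between brown and white fat were S100a8, Lcn2 and S100a9, without Mpo. Genes past 2-fold numbered 2 in epididymal fat, 1 without cross-hybridising probe sets (which drop S100a8) and 0 at 3-fold. They numbered 4 in subcutaneous fat, 2 after quantile normalization, 2 after median centring, 1 with the floor at the 60th percentile and 1 at 3-fold. They numbered 1 in brown fat, 0 after median centring, 2 with the floor at the 20th percentile, 0 at the 60th and 0 at 3-fold. The cytosolic minus granule median was 1.43 in epididymal fat, 0.76 and 2.69 with the floor at the 20th and 60th percentiles and 0.67 with Csf3r on the cytosolic side. It was -0.06 in subcutaneous fat, and -0.78 and 0.44 with those floors.

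Directions turned for uncalled values in limma, and the cause was not tested. Leaving out 1 array, or for KO against WT 1 depot, gave these ranges: for Ngp -0.097 to 1.33 between brown and white fat (lowest without BAT WT), -0.048 to 2.07 between the white depots (lowest without SubQ KO) and -0.25 to 0.93 between genotypes (lowest without subcutaneous fat or either of its arrays); between the white depots -0.82 to 0.16 for S100a8 (0.16 without Epi KO, 0.12 without SubQ WT), -0.14 to 0.55 for Mpo (-0.14 without SubQ KO, -0.13 without Epi KO) and -0.080 to 0.21 for Csf3r (-0.080 without SubQ WT, -0.030 without Epi WT); and for Lcn2 between genotypes -0.65 to 0.50 (0.50 without epididymal fat or either of its arrays). Between the white depots Mpo was at -0.092 after quantile normalization and -0.061 after median centring, and Csf3r at -0.28 after each. Lcn2 between genotypes was at 0.49 with the floor at the 20th percentile and 0.77 with no floor. Median centring shifted the median of all genes between the white depots to -0.33. Over all genes, calls between the white depots numbered 513 higher and 154 lower, 414 and 255 after quantile normalization, 514 and 1379 after median centring, 53 and 7 with the floor at the 20th percentile, 61 and 21 with no filter, 102 and 13 with no floor, 762 and 530 with an intensity trend, 72 and 10 without Epi WT, 64 and 13 without Epi KO, and 303 and 112 without SubQ KO. Between genotypes 19 rose and 14 fell with an intensity trend and 4 rose after median centring.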
